A study of Mus musculus with 6 samples.

Results

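The genes described here are 34 contractile and actin cytoskeleton genes of myofibroblasts, given as a list of symbols by what they encode, though the list was drawn up with earlier results of these data known. All 34 had a probe set of their own on the array, out of 19938 named genes in all, and all 34 passed the filter on low values that left 14953 genes for testing. Members fell into 5 roles: 11 smooth muscle type contractile genes, 8 filament-binding proteins of many cell types, 4 genes of the non-muscle motor and its control, 7 crosslinking and adhesion proteins, and 4 genes that comprise LIM domain adaptors and Srf itself.

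Myofibroblasts are contractile, matrix-making cells that fibroblasts can become in injured tissue, and these genes encode the machinery by which such cells pull. In smooth muscle and in myofibroblasts, actin filaments carrying tropomyosin and calponin slide past myosin II, and the force passes through alpha-actinin, filamin, vinculin and talin to adhesions at the cell surface. Many of these genes share a transcription factor, serum response factor (SRF), which binds a DNA element named the CArG box and which is kept in check by free actin through its cofactors of the MRTF family. Alpha smooth muscle actin (Acta2) is the common marker of myofibroblasts, and transforming growth factor beta and tension are known to raise it in fibroblasts.

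The cells were FAPs (fibro/adipogenic progenitors), stromal cells of muscle with both a fibroblast and a fat cell fate, from male C57Bl/6 mice of 8 to 12 weeks. All groups, the controls included, came from tibialis anterior muscle injured by 30 µL of 50% glycerol, so no uninjured muscle was compared. A vivo-morpholino (VMO), an antisense oligomer that enters tissue and blocks a site on an RNA, was injected 3 days after the injury, and cells were taken 2 days later. The groups were pA-VMO (oligomers against polyadenylation sites), 5'ss-VMO (an oligomer against a 5' splice site) and control VMO, with 2 arrays each, and every array held a pool of cells from 4 mice. The study concerns a shortened transcript of Pdgfra, which encodes a receptor for platelet-derived growth factors, that ends at a polyadenylation site within an intron. The 2 active reagents were designed to shift its share in opposite directions. The sort that defined the cells is not stated in the labels.

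Values are log2 levels, and a difference is the mean of 1 group minus that of another on that scale. The arrays were of the Affymetrix Mouse Gene 1.0 ST type. Precision is limited by their number, with a median standard error (SE) of 0.07 for a difference over all genes. Of 15 FAP markers looked for, 14 were on the array and 14 lay above the filter floor of 5.209. Among them Pdgfra lay at 11.29 and 11.32 on the pA-VMO arrays, 11.31 and 11.29 on the 5'ss-VMO arrays and 11.37 and 11.24 on the control arrays. With 2 arrays a group the smallest two-sided p of an exact permutation test is 0.333, so single genes were judged by limma, with p-values adjusted by Benjamini-Hochberg over all genes tested.

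Most of the contractile and actin genes lay above control on the arrays of both reagents, but none of the 34 passed the test in any comparison. With pA-VMO, 29 of 34 members lay above control, with a median difference of 0.11, against 55.2% of all genes tested and a median of 0.01; with arrays centred on their medians these counts were 24 of 34 and 43.5%. With 5'ss-VMO it was 31 of 34 with a median of 0.15, against 50.4% and a median of 0.001 for all genes, and centring left 31 of 34. The whole of the pA-VMO pair was above the whole of the control pair for 22 members (24.1% of all genes) and below it for 4 (18.8%). The 5'ss-VMO pair was above the control pair for 25 members (23.2% of all genes) and below it for 1 (21.5%). In bulk cells, a change in the share of a cell type and a change of RNA per cell cannot be told apart. The differences of these 2 comparisons rest on the same control arrays, so they are not independent of each other.

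At an adjusted p of 0.05, 0 of 34 members were called with pA-VMO against control, where 0.00669% of all genes were, and 0 of 34 with 5'ss-VMO against control, where 0.582% were. At an unadjusted p under 0.05, limma gave 10 members higher (6.22% of all genes) and 0 lower (5.23%) with pA-VMO, and 16 higher (7.72%) and 1 lower (6.19%) with 5'ss-VMO. For pA-VMO against 5'ss-VMO 0 of 34 were called (0.0602% of all genes), and at the unadjusted p 0 were higher (8.81%) and 1 was lower (7.11%).

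**Figure D1:**
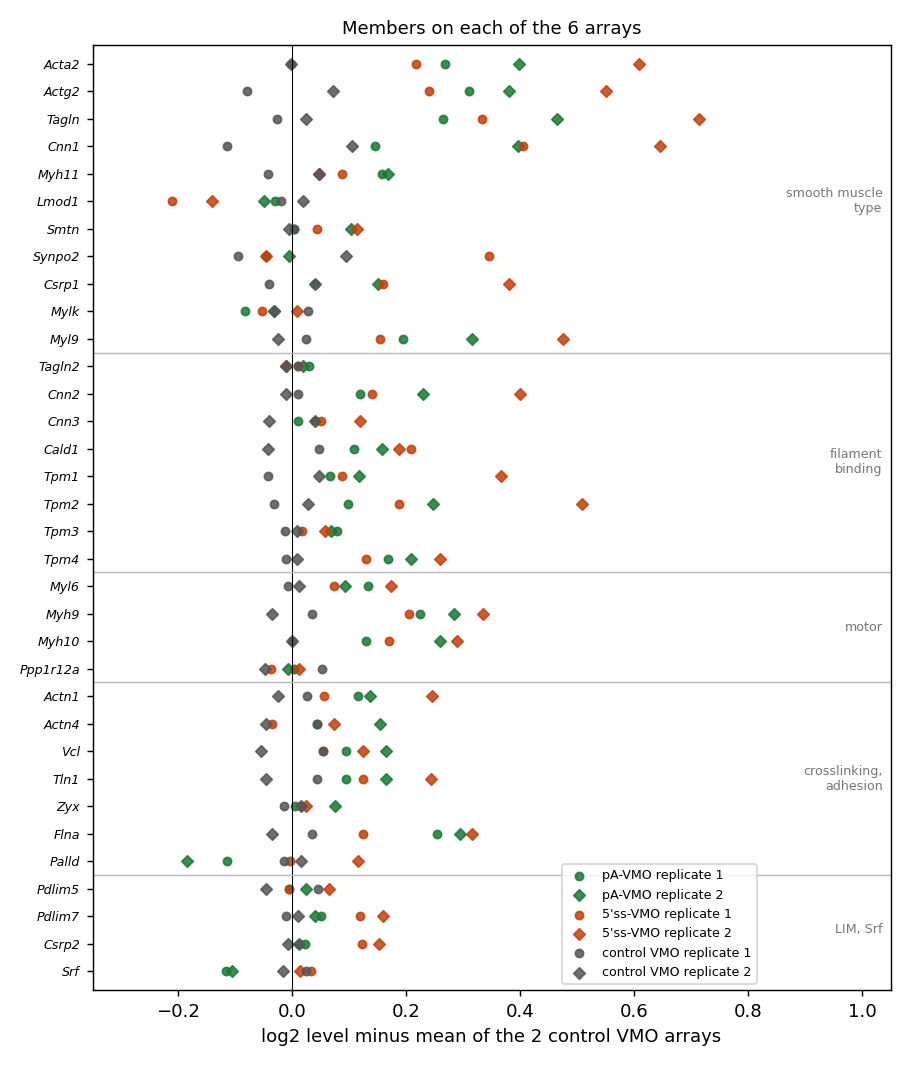
Level of each of the 34 members on each of the 6 arrays, as log2 level minus the mean of the control VMO arrays (circles are replicate 1 and diamonds replicate 2; grey lines separate the 5 roles). The 5'ss-VMO replicate 2 array is the rightmost point for 22 of the 34 genes, and on that array Tagln lies 0.72 and Tpm2 0.51 above control.

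Acta2, the myofibroblast marker, had 1 of the wider differences among the members. It lay at 11.11 and 11.24 on the pA-VMO arrays, at 11.06 and 11.45 on the 5'ss-VMO arrays and at 10.84 on both control arrays. All 4 arrays with an active reagent were thus above both control arrays, and the 5'ss-VMO arrays lay on either side of the pA-VMO arrays. The difference from control was 0.33 ± 0.12 (log2, SE, n = 2 arrays a group; 1.26-fold, adjusted p = 0.35) with pA-VMO and 0.42 ± 0.12 (1.33-fold, adjusted p = 0.178) with 5'ss-VMO.

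Tagln, which encodes the actin-binding protein transgelin, had the highest member difference with each reagent. It lay at 8.14 and 8.34 with pA-VMO, at 8.21 and 8.59 with 5'ss-VMO and at 7.85 and 7.90 with control VMO. Again the control arrays were the lowest pair, with no overlap. The difference from control was 0.37 ± 0.12 with pA-VMO (1.29-fold, adjusted p = 0.328) and 0.53 ± 0.12 with 5'ss-VMO (1.44-fold, adjusted p = 0.111).

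Cnn1 encodes calponin 1, which binds actin and slows the myosin motor in smooth muscle. It lay at 5.81 and 6.06 with pA-VMO, at 6.07 and 6.31 with 5'ss-VMO and at 5.55 and 5.77 with control VMO. The difference from control was 0.27 ± 0.11 with pA-VMO (adjusted p = 0.415) and 0.53 ± 0.11 with 5'ss-VMO, which had the lowest adjusted p of any member in that comparison (0.0983). The pA-VMO pair lay narrowly below the 5'ss-VMO pair, and the difference of pA-VMO minus 5'ss-VMO was -0.26 (95% interval -0.51 to 0.00, adjusted p = 0.316).

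Actg2, the enteric smooth muscle actin, lay at 5.92 and 5.99 with pA-VMO, at 5.85 and 6.16 with 5'ss-VMO and at 5.53 and 5.68 with control VMO. The control arrays were again below the other 4, with differences of 0.35 ± 0.10 for pA-VMO (adjusted p = 0.298) and 0.40 ± 0.10 for 5'ss-VMO (adjusted p = 0.161). The actin genes are close in sequence, and probes of one may read RNA of another, so the share of Acta2, Actg2 and the muscle actins in these values is uncertain. Actc1, the cardiac actin that regenerating muscle makes and that is no member, lay at 7.92 and 8.00 with pA-VMO, at 8.82 and 8.45 with 5'ss-VMO and at 8.05 and 8.18 with control VMO. It thus lay below control with pA-VMO, where Acta2 and Actg2 lay above it, and 0.52 above control with 5'ss-VMO, the same direction as both.

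Myl9, the regulatory light chain of smooth muscle myosin, lay at 8.97 and 9.09 with pA-VMO, at 8.93 and 9.25 with 5'ss-VMO and at 8.80 and 8.75 with control VMO. Its groups were apart from control in the same way as those of Acta2. The differences were 0.26 ± 0.10 (pA-VMO, adjusted p = 0.397) and 0.32 ± 0.10 (5'ss-VMO, adjusted p = 0.235). Csrp1, a LIM protein of smooth muscle, lay at 9.86 and 9.97 with pA-VMO, at 9.98 and 10.20 with 5'ss-VMO and at 9.78 and 9.86 with control VMO. For Csrp1 the 5'ss-VMO arrays stood apart from both other groups (0.27 ± 0.09 against control, adjusted p = 0.233), while the pA-VMO arrays reached down to the higher control array.

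Compared with Acta2, Tagln, Cnn1, Actg2 and Myl9, the other smooth muscle type genes lay closer to control or below it. Myh11, the smooth muscle myosin heavy chain, lay at 6.11 and 6.12 with pA-VMO, at 6.04 and 6.00 with 5'ss-VMO and at 5.91 and 6.00 with control VMO. Its difference from control was 0.16 ± 0.07 with pA-VMO (adjusted p = 0.403) and 0.07 ± 0.07 with 5'ss-VMO (adjusted p = 0.684). Lmod1, leiomodin 1, an actin nucleator of smooth muscle, was the 1 member whose 5'ss-VMO pair lay below the control pair. It lay at 6.05 and 6.03 with pA-VMO, at 5.87 and 5.94 with 5'ss-VMO and at 6.06 and 6.10 with control VMO (5'ss-VMO minus control -0.18 ± 0.07, adjusted p = 0.29).

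Mylk, the kinase that switches smooth muscle myosin on, ranged from 7.91 to 8.02 over the 6 arrays, and its 95% interval was -0.21 to 0.09 for pA-VMO minus control and -0.17 to 0.12 for 5'ss-VMO minus control. Smtn (smoothelin, a marker of contractile smooth muscle) ranged from 9.39 to 9.51, with differences of 0.05 for pA-VMO and 0.08 for 5'ss-VMO. Synpo2, an actin-bundling protein, was uneven within groups: it lay at 5.83 and 5.87 with pA-VMO, at 6.22 and 5.83 with 5'ss-VMO and at 5.78 and 5.97 with control VMO, and all groups overlapped. Of the 11 smooth muscle type genes, 6 had a pA-VMO pair wholly above the control pair (24.1% of all genes) and 2 one wholly below it (18.8%). For the 5'ss-VMO pair it was 8 above (23.2% of all genes) and 1 below (21.5%). Actg2, Cnn1, Myh11, Lmod1 and Synpo2 averaged within 1 log2 unit of the filter floor, where RMA values compress differences.

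**Figure D2:**
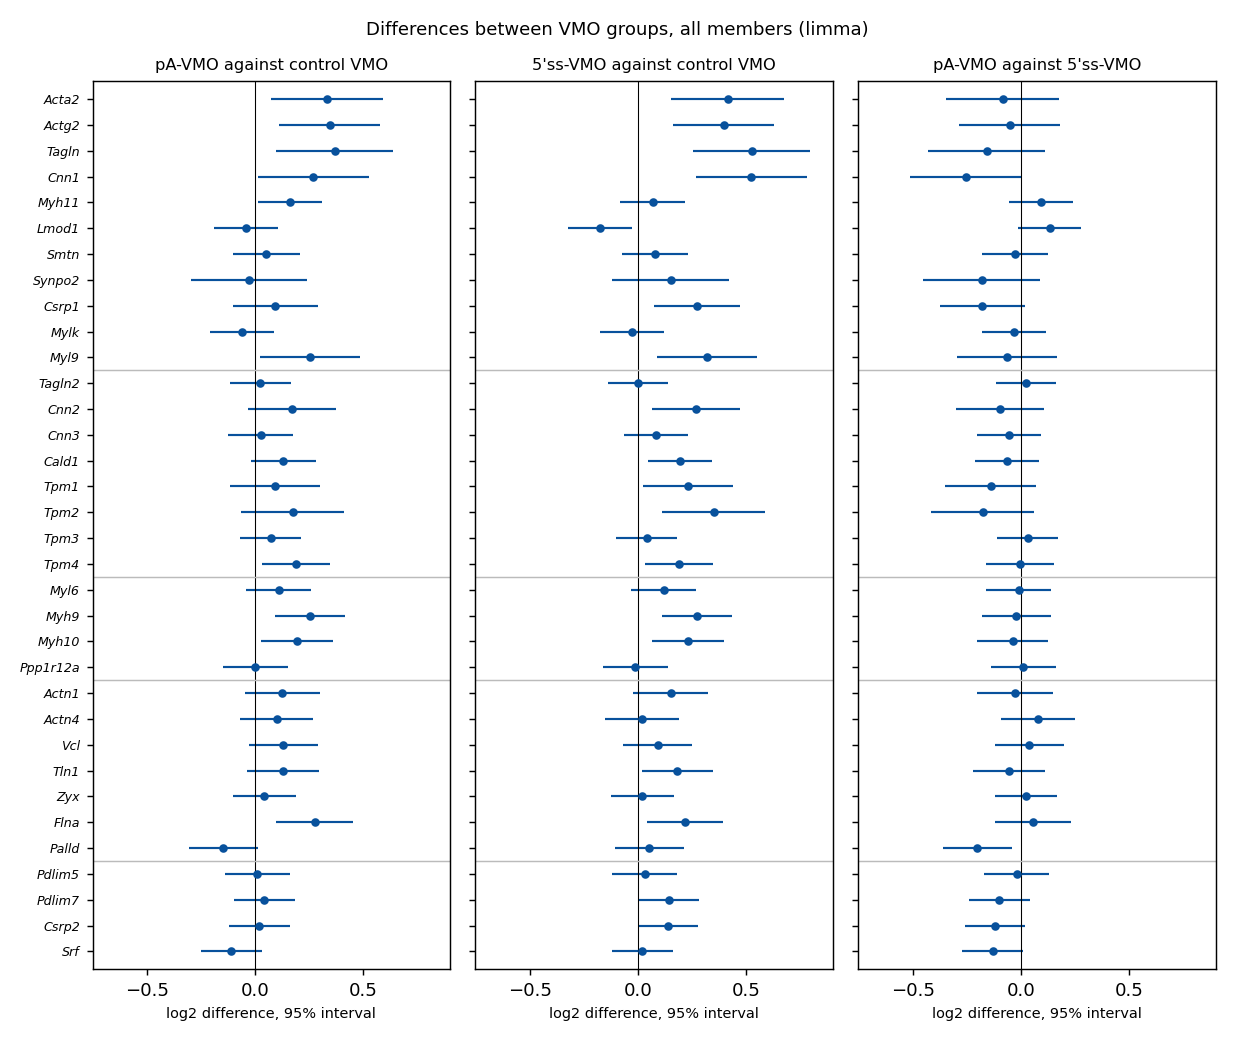
Difference between groups for each of the 34 members, as points with 95% intervals from limma (log2, the group named first minus the group named second; n = 2 arrays a group). The intervals of Acta2, Actg2, Tagln, Cnn1, Myl9, Tpm4, Myh9, Myh10 and Flna lie above 0 against control for both reagents, while in the panel of pA-VMO against 5'ss-VMO the interval of Palld is the 1 that leaves out 0; none of the 34 passed adjustment over all genes.

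The promoters of 4 members are shown because they carry CArG boxes close to the start of transcription and because 3 of the genes (Acta2, Myl9 and Cnn2) lay above control with both reagents while the fourth encodes SRF. Vcl, Myl6 and Tpm3 also held boxes and had both reagent pairs above the control pair, and their promoters are not shown. Each stretch is the 250 bases before an annotated transcript start, 5' to 3' on the gene's strand, from RefSeq (GRCm38.p6), with CArG boxes in capitals. It is chr19:34255374-34255623 (minus strand) for Acta2, chr2:156775214-156775463 (plus) for Myl9, chr10:79988350-79988599 (plus) for Cnn2 and chr17:46556163-46556412 (minus) for Srf. The annotated extents of Acta2, Myl9 and Srf begin upstream of these starts. Their stretches thus lie partly within the gene, and wholly so for Srf.
Acta2: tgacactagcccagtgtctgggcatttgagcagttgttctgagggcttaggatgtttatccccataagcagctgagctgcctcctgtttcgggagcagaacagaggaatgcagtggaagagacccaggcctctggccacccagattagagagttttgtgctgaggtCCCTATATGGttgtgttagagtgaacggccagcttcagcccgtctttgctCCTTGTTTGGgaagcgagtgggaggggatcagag
Myl9: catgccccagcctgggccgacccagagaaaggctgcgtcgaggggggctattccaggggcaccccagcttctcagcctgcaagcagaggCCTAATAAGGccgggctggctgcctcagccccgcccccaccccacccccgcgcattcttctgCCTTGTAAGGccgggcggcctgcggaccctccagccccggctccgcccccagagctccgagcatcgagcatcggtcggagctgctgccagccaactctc
Cnn2: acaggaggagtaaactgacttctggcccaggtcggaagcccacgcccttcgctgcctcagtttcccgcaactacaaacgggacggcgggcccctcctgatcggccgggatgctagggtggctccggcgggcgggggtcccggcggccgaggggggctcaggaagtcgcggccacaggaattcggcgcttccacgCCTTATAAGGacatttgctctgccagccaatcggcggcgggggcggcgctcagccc
Srf: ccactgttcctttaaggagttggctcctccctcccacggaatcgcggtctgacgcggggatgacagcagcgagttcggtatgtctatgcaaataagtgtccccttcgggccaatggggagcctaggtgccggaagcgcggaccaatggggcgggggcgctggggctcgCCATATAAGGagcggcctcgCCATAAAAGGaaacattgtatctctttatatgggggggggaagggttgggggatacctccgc
Both boxes of Acta2, whose first bases lie 84 and 34 bases before the start, are of a relaxed form in which 1 of the inner bases is not A or T. Myl9 held a strict box 161 bases before the start and a relaxed one at 99, Cnn2 a strict one at 56, and Srf a pair of strict ones at 82 and 62.

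RefSeq promoter windows of 250 bases before to 50 after the start were at hand for 30 of the 34 members, in 37 windows. Actg2, Tagln, Myh11 and Csrp2 had no window and were not searched. A strict CArG box, which reads alike on both strands, was found in 5 of the 37 windows (13.5%), against 535 of 32851 windows of all genes (1.63%). With the relaxed form counted too, the shares were 21.6% and 9.98%. The members with a strict box were Myl9, Cnn2, Srf, Vcl and Myl6. Their differences with 5'ss-VMO against control were 0.32 for Myl9, 0.27 for Cnn2, 0.02 for Srf, 0.09 for Vcl and 0.12 for Myl6. A box was thus found both in members that lay well above control and in Srf, which did not. Cnn1, Tpm2, Myh9, Csrp1 and Flna were searched and held no box of either form. Their differences with 5'ss-VMO were 0.53 for Cnn1, 0.35 for Tpm2, 0.27 for Myh9, 0.27 for Csrp1 and 0.22 for Flna. Whether boxes go with the differences was not tested. A match of letters is a description and shows no binding.

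Srf itself lay at 8.04 and 8.05 with pA-VMO, at 8.19 and 8.17 with 5'ss-VMO and at 8.18 and 8.14 with control VMO. Both pA-VMO arrays were below the other 4, with a difference of -0.11 ± 0.06 from control (adjusted p = 0.545) and -0.13 ± 0.06 from 5'ss-VMO (adjusted p = 0.346). The 5'ss-VMO arrays overlapped with control (0.02, 95% interval -0.12 to 0.16).

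Among the filament-binding proteins of many cells, the tropomyosins, which wind along actin and set which motors may bind, differed from each other. Tpm2 lay at 8.41 and 8.56 with pA-VMO, at 8.50 and 8.82 with 5'ss-VMO and at 8.28 and 8.34 with control VMO. Tpm1 lay at 9.80 and 9.85 with pA-VMO, at 9.82 and 10.10 with 5'ss-VMO and at 9.69 and 9.78 with control VMO. For both genes the control arrays were the lowest pair. For Tpm2 the difference was 0.17 ± 0.11 with pA-VMO (adjusted p = 0.567) and 0.35 ± 0.11 with 5'ss-VMO (adjusted p = 0.213). For Tpm1 it was 0.09 ± 0.09 with pA-VMO (adjusted p = 0.752) and 0.23 ± 0.09 with 5'ss-VMO (adjusted p = 0.32).

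Tpm4 lay at 11.51 and 11.55 with pA-VMO, at 11.47 and 11.60 with 5'ss-VMO and at 11.33 and 11.35 with control VMO, a near equal difference of 0.19 ± 0.07 for each reagent (adjusted p = 0.368 with pA-VMO and 0.279 for 5'ss-VMO). Of the 4 tropomyosins Tpm3 lay nearest to control, at 0.07 with pA-VMO and 0.04 for 5'ss-VMO. Tpm3 was read by 4 probe sets, and the 3 dimmer ones lay at -0.20 to -0.05 for pA-VMO minus control, against 0.07 for the brightest, so its direction depends on the probe set taken.

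Calponins and transgelins were split between their isoforms. Cnn2, the calponin of non-muscle cells, lay at 9.67 and 9.78 with pA-VMO, at 9.69 and 9.95 with 5'ss-VMO and at 9.56 and 9.54 with control VMO (0.17 ± 0.09 for pA-VMO, adjusted p = 0.511; 0.27 ± 0.09 for 5'ss-VMO, adjusted p = 0.251). Cnn3, the acidic calponin, ranged from 9.98 to 10.14 and differed by 0.03 with pA-VMO and 0.08 for 5'ss-VMO. Tagln2, the transgelin of most non-muscle cells, ranged from 10.91 to 10.95 only. Its 95% interval was -0.12 to 0.17 for pA-VMO and -0.14 to 0.14 for 5'ss-VMO, so a difference as large as that of Tagln lay outside it. Cald1, caldesmon, which blocks myosin on the filament, lay at 10.10 and 10.15 with pA-VMO, at 10.20 and 10.18 with 5'ss-VMO and at 10.04 and 9.95 with control VMO. All 4 arrays of the reagents were above control for Cald1, with differences of 0.13 (pA-VMO, adjusted p = 0.491) and 0.20 (5'ss-VMO, adjusted p = 0.254).

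The non-muscle myosin II heavy chains lay above control with both reagents. Myh9 lay at 10.37 and 10.43 with pA-VMO, at 10.35 and 10.48 with 5'ss-VMO and at 10.18 and 10.11 with control VMO. The difference was 0.25 ± 0.07 for pA-VMO (1.19-fold), with the lowest adjusted p of any member in that comparison (0.281), and 0.27 ± 0.07 for 5'ss-VMO (adjusted p = 0.162). A second, dimmer probe set of Myh9 (mean log2 level 6.50 against 10.32) gave 0.01 for pA-VMO and -0.10 for 5'ss-VMO.

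Myh10 lay at 8.58 and 8.71 with pA-VMO, at 8.62 and 8.74 with 5'ss-VMO and 8.45 on both control arrays. Its differences were 0.19 ± 0.07 for pA-VMO (adjusted p = 0.375) and 0.23 ± 0.07 for 5'ss-VMO (adjusted p = 0.233). Myl6, the essential light chain of the same motor, was read by 6 probe sets, some of which may read near-identical copies of the gene, and all 6 lay above control, by 0.10 to 0.13 with pA-VMO and by 0.10 to 0.15 with 5'ss-VMO. Ppp1r12a, the targeting subunit of the phosphatase that switches myosin off, lay near control: its 95% intervals were -0.15 to 0.15 for pA-VMO and -0.16 to 0.14 for 5'ss-VMO.

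Of the crosslinking and adhesion proteins, Flna, which encodes the actin crosslinker filamin A, showed the widest difference. It lay at 10.36 and 10.40 with pA-VMO, at 10.23 and 10.42 with 5'ss-VMO and at 10.14 and 10.07 with control VMO. The difference was 0.28 ± 0.08 with pA-VMO (adjusted p = 0.282) and 0.22 ± 0.08 with 5'ss-VMO (adjusted p = 0.276), with no overlap with control. Tln1, talin 1, which ties integrins to actin, lay at 9.31 and 9.38 with pA-VMO, at 9.34 and 9.46 with 5'ss-VMO and at 9.26 and 9.17 with control VMO (0.13 with pA-VMO, adjusted p = 0.537; 0.18 with 5'ss-VMO, adjusted p = 0.318).

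With 5'ss-VMO the other adhesion genes lay closer to control than Flna and Tln1 did. Vcl (vinculin) and Actn1 (alpha-actinin 1) differed by 0.13 each with pA-VMO; with 5'ss-VMO Vcl differed by 0.09 and Actn1 by 0.15. Actn4, another alpha-actinin of non-muscle cells, differed by 0.10 with pA-VMO and 0.02 for 5'ss-VMO, and Zyx, encoding the adhesion protein zyxin, by 0.04 with pA-VMO and 0.02 for 5'ss-VMO.

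Palld, palladin, a scaffold that binds alpha-actinin, ran the other way with pA-VMO. It lay at 8.40 and 8.33 with pA-VMO, at 8.51 and 8.63 with 5'ss-VMO and at 8.50 and 8.53 with control VMO. Both pA-VMO arrays were below all 4 others. The difference of pA-VMO minus 5'ss-VMO was -0.20 ± 0.07 (95% interval -0.36 to -0.04, adjusted p = 0.226), the 1 member with an unadjusted p under 0.05 between the reagents, and that of pA-VMO minus control was -0.15 ± 0.07 (adjusted p = 0.476).

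The LIM adaptors differed little. Pdlim7 lay at 8.91 and 8.90 with pA-VMO, at 8.98 and 9.02 with 5'ss-VMO and at 8.85 and 8.87 with control VMO, so that the 3 groups did not overlap, with a difference of 0.04 for pA-VMO (adjusted p = 0.831) and 0.14 ± 0.06 for 5'ss-VMO (adjusted p = 0.352). Csrp2, a LIM protein of smooth muscle and fibroblasts, gave 0.02 for pA-VMO and 0.14 for 5'ss-VMO, and Pdlim5, a PDZ and LIM scaffold of the Z line, 0.01 for pA-VMO and 0.03 for 5'ss-VMO.

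**Figure D3:**
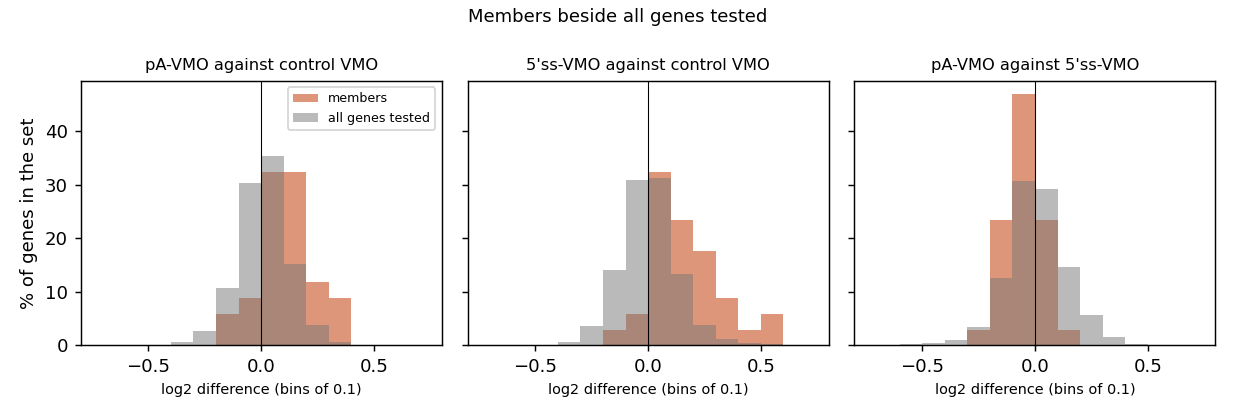
Share of the 34 members and of all 14953 genes tested (y axis, percent of genes in the set) by the size of the difference (x axis, log2, in bins of 0.1) in the 3 comparisons. The members sit to the right of all genes against control, with medians of 0.11 for pA-VMO and 0.15 for 5'ss-VMO, and slightly to the left in pA-VMO against 5'ss-VMO, with a median of -0.04.

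The reagents, meant to act on Pdgfra in opposite directions, were also set against each other. For pA-VMO minus 5'ss-VMO, 9 of 34 members were positive with a median of -0.04, against 51.5% of all genes and a median of 0.004; with arrays centred 5 of 34 were. The pA-VMO pair was below the 5'ss-VMO pair for 8 members (23.7% of all genes) and above it for 4 (25.5%); as shares of the 34 both counts are at or below those of all genes. For Acta2 the 95% interval of the difference was -0.34 to 0.18 and for Tagln -0.43 to 0.11. For Acta2 that interval reaches as far below 0 as the difference of pA-VMO from control (0.33) lies above it.

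A single array weighed on these results. The 5'ss-VMO replicate 2 array was the highest of the 6 for 22 of 34 members (64.7%), where it was the highest for 18.5% of all genes tested. It was above 5'ss-VMO replicate 1 for 29 of 34 members (50.7% of all genes), and pA-VMO replicate 2 was above pA-VMO replicate 1 for 26 (49.3% of all genes). The control arrays were even over the members as a whole, with replicate 2 above replicate 1 for 16 of 34 (44.5% of all genes). By role they were not: it was 8 of 11 smooth muscle type genes and 2 of 7 crosslinking and adhesion genes.

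Without 5'ss-VMO replicate 2, the difference of 5'ss-VMO from control was 0.22 for Acta2 (limma adjusted p = 0.441), 0.33 for Tagln (0.306), 0.41 for Cnn1 (0.324) and 0.16 for Myl9 (0.586), and 28 of 34 members were above control. Without 5'ss-VMO replicate 1 it was 0.61 for Acta2 (adjusted p = 0.0464), 0.72 for Tagln (0.0438), 0.65 for Cnn1 (0.12) and 0.48 for Myl9 (0.103), and 31 of 34 were above control. Leaving out a control array gave 33 of 34 without replicate 1 and 28 of 34 without replicate 2. With 5'ss-VMO replicate 1 as the lone 5'ss-VMO array, the median of pA-VMO minus 5'ss-VMO over the members was 0.03, turned from -0.04, with 23 of 34 positive. For pA-VMO against control, Cnn1 lay at 0.15 without pA-VMO replicate 2 and at 0.16 without control VMO replicate 1, against 0.27 with all arrays, and Tpm2 lay at 0.10 without pA-VMO replicate 2, against 0.17. The cause of the gap between the arrays was not tested.

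**Figure D4:**
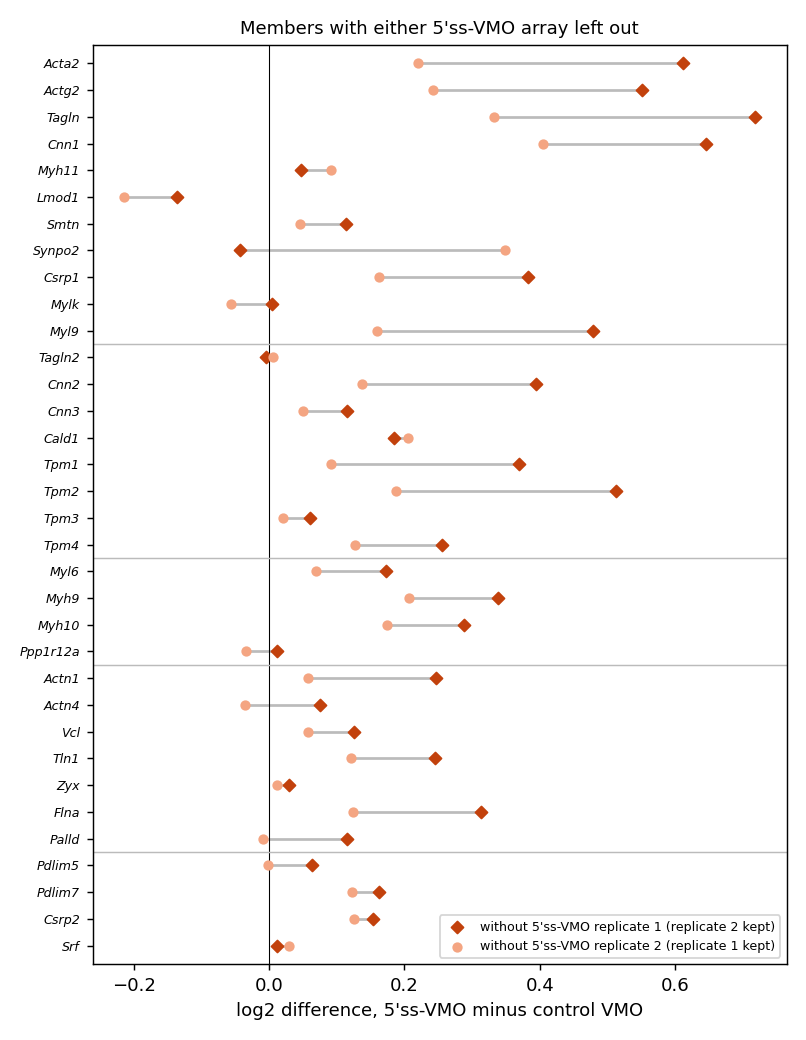
Difference of 5'ss-VMO minus control VMO (log2) for each of the 34 members when 1 of the 5'ss-VMO arrays is left out. The diamonds, which rest on replicate 2, lie to the right of the circles, which rest on replicate 1, for most genes: Acta2 lies at 0.61 and 0.22, and Synpo2 goes the other way at -0.04 and 0.35.

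Other actin and adhesion genes had medians nearer to control than the members did. Of 60 other such genes listed, 55 were tested, with medians of 0.01 for pA-VMO and 0.04 for 5'ss-VMO against control, and 0 were called in either direction. The pA-VMO pair was above the control pair for 14 of the 55 (24.1% of all genes) and below it for 8 (18.8%). The 5'ss-VMO pair was above it for 22 (23.2% of all genes) and below for 7 (21.5%), so more of these genes stood above control with 5'ss-VMO than the share over all genes gives. Among those with the smallest p, the cell-division actin binder Anln (anillin) lay at 0.42 with pA-VMO (adjusted p = 0.252), Fhl3 and Tes, both LIM proteins, at 0.32 and 0.28 with 5'ss-VMO (adjusted p = 0.167 and 0.191), and Ablim1, an actin-binding LIM protein, at -0.24 with pA-VMO and -0.27 for 5'ss-VMO (adjusted p = 0.314 and 0.177). The difference between these genes and the members was not tested.

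Markers of several other cell types also lay apart from control, though not every list did so with pA-VMO. Their part in the result was not tested. Of 17 markers of mural cells, which are the pericytes and smooth muscle of vessels and which express Acta2, Tagln, Cnn1 and Myh11, 12 were tested. With 5'ss-VMO 10 of the 12 lay above control (50.4% of all genes). Mcam, an adhesion molecule of vessel walls, lay at 7.34 and 7.28 with pA-VMO, at 7.39 and 7.53 with 5'ss-VMO and at 7.01 and 7.07 with control VMO, and rose by 0.42 with 5'ss-VMO (adjusted p = 0.0443). With pA-VMO 7 of the 12 lay above control, near the share of all genes (55.2%), and the difference of Mcam was 0.27 (adjusted p = 0.261). The summed signal of the 17 markers was 3022 to 3195 on the pA-VMO arrays, 3260 to 3398 on the 5'ss-VMO arrays and 2949 to 2980 on the control arrays. The median of the tested mural markers lay 0.12 above control on 5'ss-VMO replicate 1 and 0.20 on replicate 2, so these markers ran the same way between those arrays as the smooth muscle type members, at 0.16 and 0.38. Between the pA-VMO arrays the mural markers ran the other way, at 0.091 on replicate 1 and 0.038 on replicate 2. The smooth muscle type members lay there at 0.148 and 0.17. Myocd, Pln, Kcnmb1, Trpc6 and Higd1b lay below the filter floor.

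Markers of myogenic cells and fibres had 9 of 16 tested genes above control with pA-VMO (median 0.004), near the share of all genes (55.2%). With 5'ss-VMO it was 13 of 16 (median 0.25; 50.4% of all genes). Chrna1, a subunit of the acetylcholine receptor of muscle, rose with 5'ss-VMO by 0.62 (adjusted p = 0.0283). Their summed signal was 1617 to 1646 with pA-VMO, 1900 to 2079 with 5'ss-VMO and 1564 to 1734 with control VMO. Myh1 and Myh4, heavy chains of adult fast fibres, were below the floor. Within 5'ss-VMO these markers ran the other way, at a median of 0.27 above control on replicate 1 and 0.21 on replicate 2.

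Between the 5'ss-VMO arrays, cycling cell markers ran the same way as the members, with a median of 0.11 on replicate 1 and 0.38 on replicate 2. Between the pA-VMO arrays they ran the other way, at 0.36 on replicate 1 and 0.30 on replicate 2. The median of all members there was 0.084 on replicate 1 and 0.145 on replicate 2. All 11 tested lay above control with each reagent, and 0 were called. FAP markers lay below control, 12 of 14 with pA-VMO and 13 of 14 with 5'ss-VMO, of which Dpp4, a surface peptidase of a fibroblast subset, fell with 5'ss-VMO by 0.52 (adjusted p = 0.0318). The summed signal of the cycling markers was 2034 to 2068 with pA-VMO, 1788 to 2128 with 5'ss-VMO and 1583 to 1593 with control VMO, and that of the FAP markers 38548 to 38989 with pA-VMO, 37822 to 39124 with 5'ss-VMO and 39731 to 41432 with control VMO.

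Macrophage markers had 10 of 12 above control with pA-VMO (55.2% of all genes) and 12 of 12 with 5'ss-VMO (50.4%). Of these, the complement genes C1qa and C1qc rose with 5'ss-VMO (adjusted p = 0.0472 for C1qa and 0.0249 for C1qc). The summed signal of the macrophage markers was 1715 to 1780 with pA-VMO, 1836 to 1852 with 5'ss-VMO and 1361 to 1656 with control VMO. Endothelial markers had 7 of 9 above control with pA-VMO (55.2% of all genes) and 6 of 9 with 5'ss-VMO (50.4%). Cdh5, the cadherin of endothelial junctions, rose by 0.70 with 5'ss-VMO (adjusted p = 0.00551). Tek lay below control, at -0.20 with pA-VMO (adjusted p = 0.382) and -0.19 with 5'ss-VMO (adjusted p = 0.312). The 5'ss-VMO pair was above the control pair for 5 of the 9 (23.2% of all genes) and below it for 2 (21.5%). The summed signal of these markers was 1875 to 1889 with pA-VMO, 1901 to 1936 with 5'ss-VMO and 1775 to 1832 with control VMO. That of the 34 members was 30446 to 31566 with pA-VMO, 30237 to 33161 with 5'ss-VMO and 28182 to 28635 with control VMO.

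**Figure D5:**
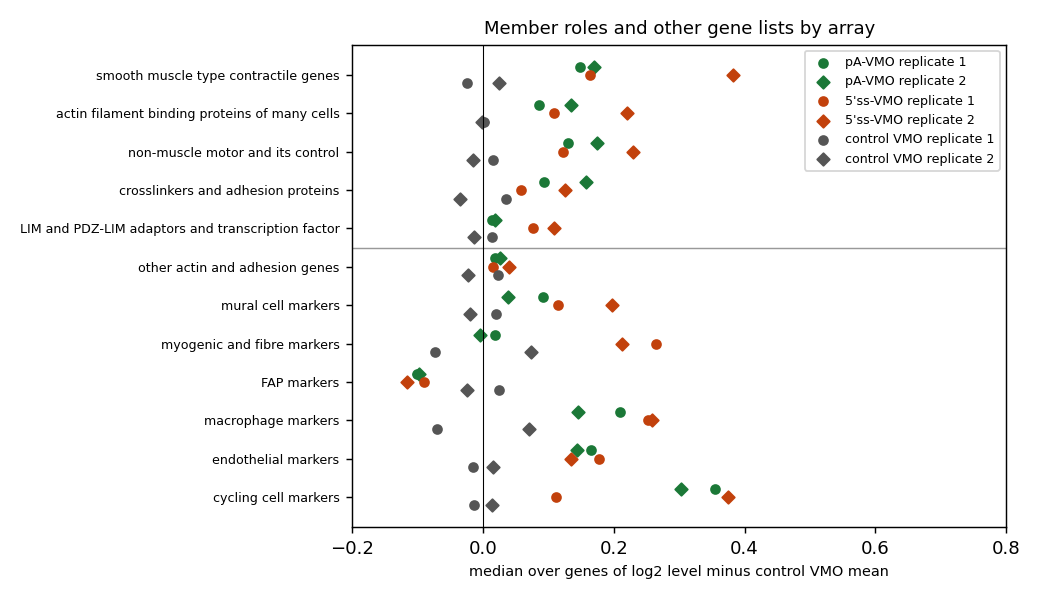
Median over genes of the log2 level minus the control VMO mean, on each of the 6 arrays, for the 5 member roles (above the grey line) and for 7 lists of other genes (below it). Among the smooth muscle type genes the 5'ss-VMO replicate 2 array lies at 0.38 and the other 3 arrays with an active reagent between 0.15 and 0.17; the other actin and adhesion genes stay within 0.04 of control.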

How the data were processed

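Gene expression was measured on 6 arrays, 2 for each of 3 groups. Per the labels' protocols, cDNA labelled with biotin was made from 100 ng of total RNA of frozen cells. The authors deposited log2 values, made per the submitters' processing notes with Affymetrix Expression Console and RMA, which corrects background, makes the arrays' distributions alike and summarises each probe set. For its version, settings and genome build nothing is stated in the sources used here. A change in total RNA is hidden by such scaling. The values ran from 1.38 to 13.50, and over all 35556 probe sets the lowest correlation between arrays was 0.99. Batches of arrays were not tested, since no scan dates were at hand.

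Of the probe sets, 21789 have 1 gene symbol in the platform annotation, 1621 several and 12146 none; 21698 named ones matched a RefSeq gene ID (GRCm38.p6) and 0 symbols changed. The highest-mean probe set stood for each of the 19938 genes (999 have several), and genes whose mean was below the 25th percentile (5.209) were left out. Group means were fitted on all 6 arrays with limma 3.58.1 (lmFit, contrasts.fit, eBayes, no block) in R 4.3.3, with 3 residual and 6.06 prior degrees of freedom; tests were two-sided, with Benjamini-Hochberg adjustment over all 14953 genes and a threshold of 0.05. Summed signals are sums of 2 raised to the log2 value. The fit was tested on simulated data with independent noise. The pass rule covered only added changes of 2 log2 units, larger than any member difference here, so it does not bear on changes of the members' size.

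The members and gene lists were chosen with earlier results of these data known. Values on every array are given for 7 contractile markers and Srf and for the 12 further members with the smallest unadjusted p, plus others that a sentence singles out after their values were seen (Synpo2); from other lists up to 4 genes with the smallest p. The alternatives changed the filter, the probe set rule, the eBayes model, the arrays in the fit, the scaling and the block, and left out each array. One further list of genes is not reported here.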

Additional observations from a re-analysis of the deposited data

How the results depend on the processing

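No member was called at the main settings, and in pA-VMO against control and pA-VMO against 5'ss-VMO that count stayed at 0 in every alternative run. In 5'ss-VMO against control the number of members called was 1 with the 50th percentile filter (Tagln, limma adjusted p = 0.0494), 3 with eBayes with trend and robust (Tagln, Cnn1 and Myh9; lowest adjusted p = 0.0193) and 2 with a replicate block (Tagln and Cnn1; lowest adjusted p = 0.0153). With 1 array left out it ranged from 0 to 2, the 2 being Acta2 and Tagln without 5'ss-VMO replicate 1. The lone array of such a fit is assumed to vary like the other groups. Over all alternatives the smallest adjusted p of a member in that comparison lay between 0.0153 and 0.278. The labels do not say whether shared replicate numbers pair the arrays. Over all genes tested, the correlations of same-numbered deviations were -0.0345, -0.102 and 0.0207. Such values over all genes cannot decide whether a small set of genes shares a replicate effect. Of the 11 smooth muscle type genes, replicate 2 was above replicate 1 for 10 with pA-VMO (49.3% of all genes). It was 9 with 5'ss-VMO (50.7%) and 8 with control VMO (44.5%). The replicate block moved the count over all genes to 90 from 87 for 5'ss-VMO, to 23 from 9 between the reagents and left it at 1 for pA-VMO.

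The median member difference with an array left out ran from 0.084 to 0.145 for pA-VMO against control, from 0.106 to 0.167 for 5'ss-VMO against control and from -0.086 to 0.026 for pA-VMO against 5'ss-VMO; in the other alternatives it moved by less than the spread between arrays. Centring each array on its median left 24 of 34 members above control with pA-VMO, against 29, and 31 of 34 with 5'ss-VMO, as before.

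Counts over all genes were less stable. With no filter they were 0, 24 and 3 in the order pA-VMO against control, 5'ss-VMO against control and pA-VMO against 5'ss-VMO. Trend and robust gave 49, 265 and 186, and the 50th percentile filter gave 181 where 5'ss-VMO was set against control and 102 between the reagents. Between the reagents, the mean of a gene's probe sets gave 15 and arrays centred on their median gave 102, of which 10.8% were higher, against 22.2% of the 9 at the main settings. With an array left out the counts ranged from 0 to 2, 8 to 42 and 1 to 18.

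Named members changed sign in 17 of the alternative values, nearly all between the reagents, and the cause was not tested. For pA-VMO against 5'ss-VMO the leave-out ranges were -0.278 to 0.113 for Acta2, -0.205 to 0.104 for Actg2, -0.35 to 0.035 for Tagln, -0.223 to 0.095 for Myl9, -0.085 to 0.045 for Myh9, -0.037 to 0.152 for Flna, -0.1 to 0.026 for Myh10, -0.223 to 0.034 for Cnn2, -0.067 to 0.062 for Tpm4, -0.116 to 0.009 for Tln1 and -0.278 to 0.000 for Tpm1. Myh9 lay at 0.047 there with the mean of its probe sets. Palld ranged from -0.009 to 0.116 for 5'ss-VMO against control. Signal near the filter floor limits what can be seen for Actg2, Cnn1, Myh11, Lmod1 and Synpo2.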
